A study of Mus musculus with 12 samples.

Results

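J-domain proteins, chaperonins, prefoldin and the Hsp90 system were examined as 1 group of chaperone genes in mpkCCD cells, a mouse cell line that originates from principal cells of the cortical collecting duct. The genes were chosen by symbol and not by any measured value. The rule took every symbol that starts with Dnaja, Dnajb or Dnajc and a number, with Cct2 to Cct8, with Pfdn and a number or with Bag and a number, and added Tcp1, Hsp90aa1, Hsp90ab1, Hspd1, Hspe1, Stip1, St13, Hsf1 and Hsf2. It found 77 of the 52015 genes used. Of these, 47 were J-domain genes, and 38 of the 47 reached 0.5 FPKM (fragments per kilobase of exon, scaled to the mapped fragments of the library) in at least 1 group.

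J-domain proteins bind substrates and stimulate the ATPase of the Hsp70 chaperones, which then pass proteins on to Hsp90 or to the chaperonins. The cytosolic chaperonin TRiC/CCT is a ring of different subunits that folds actin and tubulin, which prefoldin delivers to it, while Hspd1 and Hspe1 form the chaperonin of mitochondria. Hypertonic medium draws water from cells and crowds and perturbs their proteins, and cells of the renal medulla are exposed to such conditions throughout life. NFAT5 is the transcription factor that drives many genes for the uptake and synthesis of organic osmolytes under hypertonicity.

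RNA-seq was performed on 12 libraries of mpkCCD cells in 4 groups. Scr cells carried a scramble (non-targeting) guide RNA, and their genotype at Nfat5 is given as wild type. Nfat5-KO cells had Nfat5 deleted with CRISPR/Cas9 and came from 2 clones, N1 and N3, so that a difference between the genotypes may also be one between clones. Scr_300 and Nfat5-KO_300 were kept in isotonic medium (300 mosmol/kg). Scr_600 and Nfat5-KO_600 were kept in hypertonic medium (600 mosmol/kg), for which NaCl (100 mM) and urea (100 mM) had been added. Both media were applied for 5 days. The Scr groups had 2 libraries each and the Nfat5-KO groups 4 each. The deposited values hold 1 FPKM per gene and group and none per library, so no difference below has a replicate check, and no SD, p-value or test could be calculated. Read depth is unknown. The comparisons asked how hypertonic culture changes these transcripts in each genotype and how the genotypes differ at each osmolality. They share groups, so that a single group value enters more than 1 comparison.

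Nfat5 itself was at 5.61 FPKM in Scr_300, 7.93 in Scr_600, 3.47 in Nfat5-KO_300 and 6.88 in Nfat5-KO_600. Its transcript was lower in the knockout at both osmolalities but present in all groups, and since a small edit of a gene can leave its transcript in place, these values do not check the labels. Of 10 markers of principal cells and their epithelium, 6 reached 0.5 FPKM in a group. The epithelial Krt18, Krt8, Epcam and Cdh1 were high in all groups, with Epcam between 211 and 304 FPKM. Aqp2, the water channel that defines principal cells, was listed at 0 in Scr_300 and was at 0.245 FPKM in Scr_600, 0.0171 in Nfat5-KO_300 and 0.219 in Nfat5-KO_600, while Scnn1b, Scnn1g and Elf5 stayed below 0.5 FPKM in all groups. Of the other markers of the collecting duct, Aqp3 was at 2.91, 2.07, 2.93 and 2.82 FPKM and the sodium channel subunit Scnn1a at 2.95, 1.31, 3.56 and 7.03 FPKM in Scr_300, Scr_600, Nfat5-KO_300 and Nfat5-KO_600. Of 9 markers of other kidney cells, 1 reached 0.5 FPKM. This was Lrp2, at 1.07 FPKM in Nfat5-KO_600, and the sum of the list was 0.106, 0.125, 0.249 and 1.64 FPKM in Scr_300, Scr_600, Nfat5-KO_300 and Nfat5-KO_600. The part of these markers in the results was not tested. In bulk RNA, fewer cells that use a gene and less RNA per cell cannot be told apart.

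The 77 genes together took 1.84% of all FPKM in Scr_300, 1.62% in Scr_600, 1.81% in Nfat5-KO_300 and 1.57% in Nfat5-KO_600. Their share was thus smaller in both hypertonic groups. In the rest of the text a difference is the log2 ratio of FPKM + 0.1, taken where at least 1 of the groups compared reached 0.5 FPKM, and 65 of the 77 genes met this in each comparison. The remaining 12 are accounted for at the end.

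Hypertonic values lay below isotonic ones for 48 of the 65 genes in the Scr comparison and for 46 in the Nfat5-KO comparison, which is 73.8% and 70.8%, beside 54.6% and 52.9% of all genes tested. With all groups rescaled by median-of-ratios factors, these counts were 42 and 44, beside 6329 of 12929 and 6086 of 12982 genes. The median log2 ratio was −0.16 in Scr and −0.21 in Nfat5-KO cells, beside −0.04 over all genes in both. Between genotypes, the median was −0.01 at 300 mosmol/kg and −0.12 at 600 mosmol/kg, beside −0.00 and −0.02 over all genes. The shift was thus a modest one that lay towards lower levels in hypertonic medium, and it was larger among the most abundant members. Of the 18 members that reached 50 FPKM, 17 had lower hypertonic values in both genotypes, with a median of −0.33 in Scr and −0.54 in Nfat5-KO cells. The exception was Bag6. Abundant genes as a whole were also lower. Of the 1079 genes with at least 50 FPKM, 71.4% were lower in Scr and 79.3% in Nfat5-KO cells, with medians of −0.18 and −0.35. In both, the 18 members had the lower median, yet it lay nearer to that of these genes than to that of all genes. Between genotypes, the 18 members had medians of −0.09 at 300 and −0.26 at 600 mosmol/kg, beside −0.02 and −0.18 for the 1079 genes. Lower in the knockout were 61.1% and 72.2% of the 18, beside 53.0% and 73.2% of the 1079.

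Few members differed by much. In Scr_600 against Scr_300, 6 of the 65 (9.23%) were at least 1.5-fold lower and 0 at least 1.5-fold higher, beside 9.01% and 10.4% of the genes tested. In Nfat5-KO_600 against Nfat5-KO_300, 11 (16.9%) were at least 1.5-fold lower and 4 (6.15%) higher, beside 13.8% and 14.1%. In Nfat5-KO_300 against Scr_300, 1 was lower and 1 higher (1.54% each), beside 6.21% and 5.27%. In Nfat5-KO_600 against Scr_600, 2 (3.08%) were lower and 5 (7.69%) higher, beside 9.44% and 9.84%. The share of members that were lower was near that of all genes in both tonicity comparisons, while the share that were higher was under it in all 4 comparisons. A 2-fold difference was rarer still. It was reached in Nfat5-KO_600 against Nfat5-KO_300 by 2 higher and 2 lower members (all genes 6.25% and 4.11%) and in Nfat5-KO_600 against Scr_600 by 1 higher and 0 lower (3.76% and 3.68%). In Scr_600 against Scr_300 (4.81% and 2.86% of all genes higher and lower) and in Nfat5-KO_300 against Scr_300 (1.73% and 2.44%) no member reached it.

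**Figure D1:**
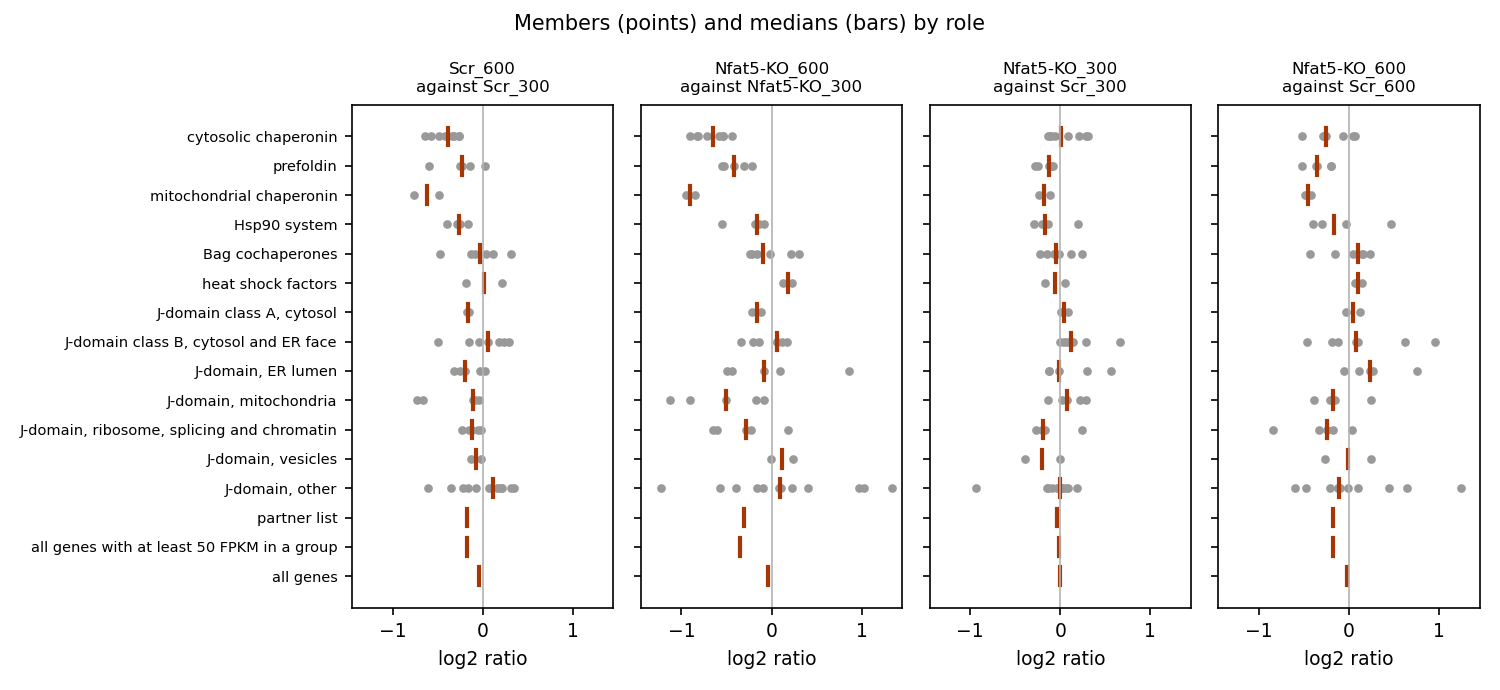
Log2 ratio of FPKM + 0.1 (x axis) for the 65 members with at least 0.5 FPKM in a group compared, by role (y axis), in the 4 comparisons. Grey points are members and bars are medians, with the partner list, the 1079 genes of at least 50 FPKM and all genes below as medians only. The cytosolic chaperonin sits left of 0 in both tonicity panels, with medians of −0.38 and −0.65.

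The cytosolic chaperonin had 1 direction in both genotypes. All 8 subunits, Tcp1 and Cct2, Cct3, Cct4, Cct5, Cct6a, Cct7 and Cct8, had lower values in the hypertonic than in the isotonic group of either genotype, also after rescaling. Their median log2 ratio was −0.38 in Scr and −0.65 in Nfat5-KO cells, and the ratio was the lower one in Nfat5-KO cells for 8 of 8 subunits, with a median of −0.25 for the Nfat5-KO minus the Scr log2 ratio. Over the 1079 genes of at least 50 FPKM, 763 had the lower ratio in Nfat5-KO cells, and the same difference had a median of −0.15. Over all genes these were 6973 of 13414, with a median of −0.01. Lower in hypertonic medium were 71.4% of the 1079 genes in Scr and 79.3% in Nfat5-KO cells (medians −0.18 and −0.35). The subunits stand in 1 complex, so they are not 8 independent observations.

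The sum of the 8 subunits was 1349 FPKM in Scr_300, 1008 in Scr_600, 1375 in Nfat5-KO_300 and 843 in Nfat5-KO_600. The isotonic groups were thus similar and the hypertonic groups at 0.747 and 0.613 of them, in Scr and Nfat5-KO cells in turn. Since the ring holds each subunit once, their transcript levels can be set against each other per length. The highest subunit was 4.49 times the lowest in Scr_300, 4.21 times in Scr_600, 3.72 times in Nfat5-KO_300 and 3.77 times in Nfat5-KO_600.

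Cct2 was the most abundant subunit in Scr_300, with 327 FPKM there, 244 in Scr_600, 299 in Nfat5-KO_300 and 169 in Nfat5-KO_600. Its log2 ratio was −0.42 in Scr and −0.82 in Nfat5-KO cells, and between the hypertonic groups the knockout had the lower value (−0.53), the largest such difference among the subunits. Cct8 had the lowest ratio in both genotypes, with 173 FPKM in Scr_300 and 111 in Scr_600 (−0.64), and 214 in Nfat5-KO_300 and 114 in Nfat5-KO_600 (−0.91). It was higher in the knockout at 300 mosmol/kg (0.30) and similar at 600 mosmol/kg (0.04). Cct6a was at 213, 152, 225 and 127 FPKM in the same order (−0.48 and −0.83). Cct8, in both genotypes, and Cct2, Cct4 and Cct6a, in Nfat5-KO cells only, passed 1.5-fold.

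Cct4 was at 86.5 FPKM in Scr_300, 58.0 in Scr_600, 80.2 in Nfat5-KO_300 and 48.6 in Nfat5-KO_600 (−0.58 and −0.72). Cct5 was at 285, 225, 274 and 183 FPKM in the same order (−0.34 and −0.58), and Tcp1, the founding subunit of the complex, at 118, 98.1, 110 and 81.0 FPKM (−0.27 and −0.44). In all of these Nfat5-KO_600 was the lowest group. Cct3 was at 72.8, 58.2, 88.6 and 61.1 FPKM (−0.32 and −0.54), and Cct7 at 73.7, 61.6, 85.1 and 58.7 FPKM (−0.26 and −0.53). These subunits, like Cct8 and Cct6a, were higher in the knockout at 300 mosmol/kg, so that 4 subunits were higher and 4 lower there. At 600 mosmol/kg 6 of 8 were lower in the knockout. Of the 1079 genes of at least 50 FPKM, 53.0% and 73.2% were lower in the knockout at 300 and 600 mosmol/kg.

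**Figure D2:**
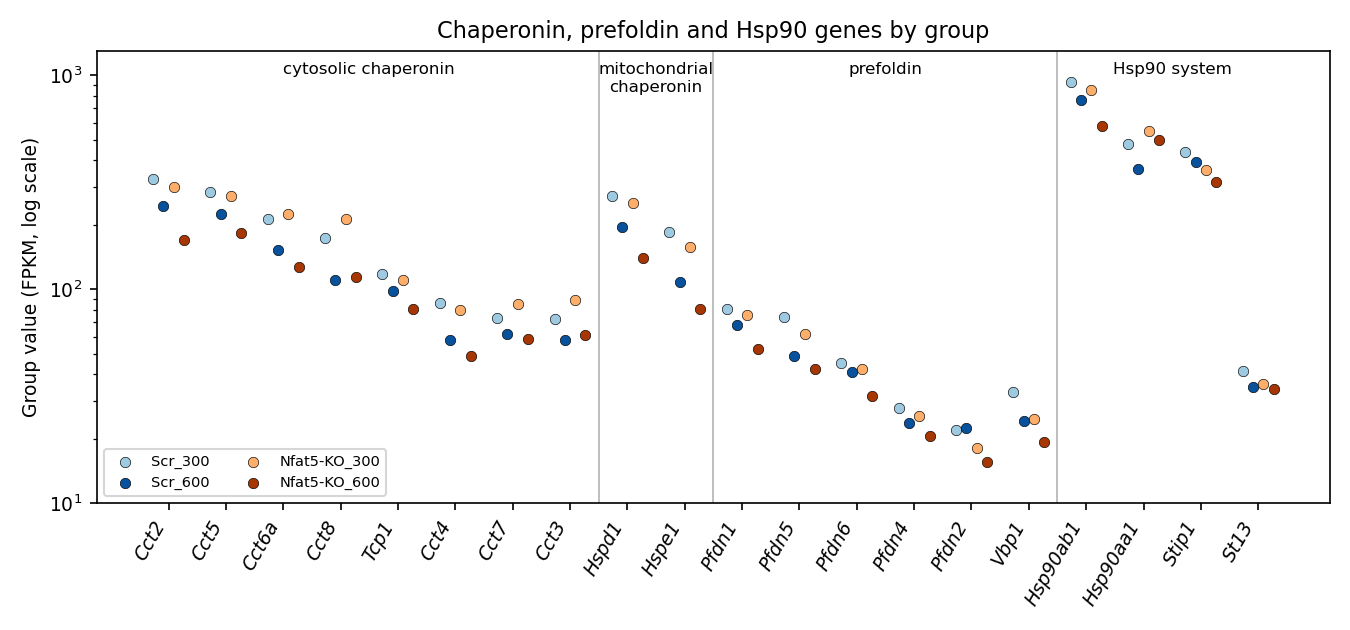
Group values in FPKM (y axis, log scale) of the chaperonin subunits, prefoldin with Vbp1 and the Hsp90 system (x axis). Each point is the authors' value for a group, without error, and colours mark the 4 groups. Nfat5-KO_600 is the lowest group for most genes, whereas Hsp90aa1 is lowest in Scr_600, at 363 FPKM.

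Prefoldin, like the chaperonin, was lower in hypertonic medium, apart from Pfdn2 in Scr cells. It is a cochaperone of 6 subunits, of which the rule takes Pfdn1, Pfdn2, Pfdn4, Pfdn5 and Pfdn6, while Vbp1, the other subunit, has another kind of symbol and is given beside them. In Nfat5-KO cells 5 of 5 were lower at 600 mosmol/kg (median −0.42), and in Scr cells 4 of 5 (median −0.23). At both osmolalities the knockout had the lower value in 5 of 5, with medians of −0.12 at 300 and −0.36 at 600 mosmol/kg. These counts were the same after rescaling. Among all genes, 54.6% and 52.9% were lower in hypertonic medium in Scr and Nfat5-KO cells. In the knockout 50.2% and 52.2% of them were lower at 300 and 600 mosmol/kg. Of the genes with at least 50 FPKM, 71.4% and 79.3% were lower in hypertonic medium (medians −0.18 and −0.35). In the knockout 53.0% and 73.2% of those were lower at 300 and 600 mosmol/kg. Pfdn5, also known as a partner of Myc, had the lowest ratio in Scr cells, being at 73.8, 48.7, 62.1 and 42.2 FPKM in Scr_300, Scr_600, Nfat5-KO_300 and Nfat5-KO_600 (−0.60 in Scr, −0.55 in Nfat5-KO). Pfdn2 alone was not lower in Scr_600 and stood at 22.0, 22.4, 18.1 and 15.6 FPKM in the same order. Its difference between genotypes, −0.28 at 300 and −0.52 at 600 mosmol/kg, was the largest of the 5. Pfdn1 was at 80.6, 67.7, 75.9 and 52.7 FPKM, Pfdn6 at 45.3, 41.1, 42.6 and 31.9 FPKM, and Pfdn4 at 27.9, 23.8, 25.6 and 20.6 FPKM, each lowest in Nfat5-KO_600. Vbp1 was at 32.9, 24.2, 24.9 and 19.3 FPKM, also lowest in that group, but its ratio was slightly lower in Scr (−0.44) than in Nfat5-KO cells (−0.36).

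The genes of the mitochondrial chaperonin had the lowest median ratios of any role in the tonicity comparisons, −0.62 in Scr and −0.90 in Nfat5-KO cells. Hspd1, which encodes the ring-forming Hsp60, was at 273 FPKM in Scr_300, 196 in Scr_600, 252 in Nfat5-KO_300 and 139 in Nfat5-KO_600, a log2 ratio of −0.48 in Scr and −0.85 in Nfat5-KO cells. Hspe1, its co-chaperonin Hsp10, was at 184, 109, 157 and 81.1 FPKM (−0.76 and −0.95). Both were lower in the knockout at 300 mosmol/kg (−0.12 and −0.23) and more so at 600 mosmol/kg (−0.49 and −0.42). The ratio of Hspd1 to Hspe1 stayed between 1.48 and 1.80 in the 4 groups.

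Hspd1 and Hspe1 lie head to head on chromosome 1 (GRCm38, GENCODE M21: Hspd1 at chr1:55077835-55088243 on the minus strand and Hspe1 at chr1:55088132-55091307 on the plus strand). Their longest annotated models overlap by 112 exon bases on opposite strands, 4.24% of the exon bases of Hspd1 and 7.60% of those of Hspe1. In RefSeq the start sites are 215 bases apart, and the stretch between them is shown because both genes share it and both were lower in hypertonic medium. It was searched on both strands for the heat shock element, the motif bound by heat shock factors, in the 3-unit forms TTCNNGAANNTTC and GAANNTTCNNGAA. The sequence is chr1:55087933-55088147 of GRCm38.p6 on the plus strand, from just after the start of Hspd1 to just before that of Hspe1, and capitals mark the overlapping matches:
Hspd1-Hspe1: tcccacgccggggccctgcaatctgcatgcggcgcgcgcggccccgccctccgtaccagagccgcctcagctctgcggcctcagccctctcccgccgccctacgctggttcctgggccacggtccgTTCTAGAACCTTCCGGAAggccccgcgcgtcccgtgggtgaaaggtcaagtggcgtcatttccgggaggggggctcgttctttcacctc

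The matches span 18 bases, 127 bases from the start of Hspd1 and 72 bases from that of Hspe1. Such a 3-unit form occurs in 0.603% of the 32851 RefSeq windows, which run from 250 bases before to 50 bases after a start site. Of the members, 59 have a window, and the only other member with the form at 0.5 FPKM or more is Dnajb6, whose stretch of 100 bases before a start site is chr5:29735798-29735897 on the plus strand:
Dnajb6: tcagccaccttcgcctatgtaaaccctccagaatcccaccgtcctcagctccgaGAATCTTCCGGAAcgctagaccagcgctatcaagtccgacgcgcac

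Dnajb6 did not share the pattern of Hspd1 and Hspe1, as its values below show. The share of members with a motif was not set against that of all genes, since only 76.9% of the members with at least 0.5 FPKM had a window and such a check is void below 80%. A match of letters is a description and not evidence of binding.

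Hsp90aa1 and Hsp90ab1, the stress-inducible and the constitutive cytosolic Hsp90, went apart between the genotypes. Hsp90ab1 (chr17:45567775-45573271, minus strand) was the most abundant member, with 934 FPKM in Scr_300, 766 in Scr_600, 849 in Nfat5-KO_300 and 579 in Nfat5-KO_600. Its hypertonic value was the lower one in both genotypes (−0.28 and −0.55) and lower in the knockout at 600 mosmol/kg (−0.40). Hsp90aa1 (chr12:110690605-110702728, minus strand) was at 479, 363, 549 and 500 FPKM in the same order. Its ratio was −0.40 in Scr and −0.14 in Nfat5-KO cells, and it was higher in the knockout at both osmolalities, by 0.20 at 300 and 0.46 at 600 mosmol/kg. The directions held after rescaling.

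As a result, the ratio of Hsp90aa1 to Hsp90ab1 was 0.512 in Scr_300, 0.473 in Scr_600, 0.647 in Nfat5-KO_300 and 0.863 in Nfat5-KO_600. The sum of both was 1412, 1129, 1399 and 1079 FPKM, nearly the same in the genotypes at each osmolality, with a ratio of Nfat5-KO to Scr of 0.990 at 300 and 0.956 at 600 mosmol/kg. Stip1, which links Hsp70 to Hsp90, was at 439, 392, 360 and 317 FPKM and was lower in the knockout at both osmolalities (−0.29 and −0.30), with slightly lower values in hypertonic medium (−0.16 and −0.18). St13, another cochaperone that bridges Hsp70 and Hsp90, was at 41.6, 35.0, 36.2 and 34.2 FPKM. It was highest in Scr_300 and nearly level in the other groups.

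The Bag proteins are nucleotide exchange factors or partners of Hsp70, and their 6 genes had no common direction. Bag6, which guards newly made membrane proteins, was the only abundant member that was higher in hypertonic medium, at 51.8, 64.1, 46.7 and 57.5 FPKM in Scr_300, Scr_600, Nfat5-KO_300 and Nfat5-KO_600 (0.31 and 0.30). Bag3, which directs damaged proteins to autophagy, was at 13.6, 14.8, 13.0 and 11.0 FPKM. It was slightly higher at 600 mosmol/kg in Scr (0.12) and lower in Nfat5-KO cells (−0.24), so that at 600 mosmol/kg the knockout was lower by −0.43. Bag2, an inhibitor of the ubiquitin ligase CHIP, showed the reverse order, with 14.2, 10.2, 12.2 and 12.0 FPKM, a log2 ratio of −0.47 in Scr and −0.02 in Nfat5-KO cells. Bag1 stayed between 82.1 and 94.9 FPKM, Bag4 between 5.57 and 6.48 FPKM and Bag5 between 10.1 and 13.1 FPKM, and no difference in these 3 genes exceeded 0.24.

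The heat shock factors, which activate many of the genes above under heat, differed little. Hsf1 was at 8.99 FPKM in Scr_300, 10.5 in Scr_600, 9.30 in Nfat5-KO_300 and 10.9 in Nfat5-KO_600, higher in hypertonic medium by about the same amount in both genotypes (0.22 and 0.23). Hsf2 was at 2.82, 2.48, 2.50 and 2.74 FPKM, lower at 600 mosmol/kg in Scr (−0.18) and higher in Nfat5-KO cells (0.13).

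The J-domain genes had no common direction. Of the 38 with at least 0.5 FPKM, 26 (68.4%) had lower hypertonic values in the Scr comparison and 23 (60.5%) in that of the knockout. Their medians were −0.08 and −0.11. The shares over all genes were 54.6% and 52.9%. After rescaling, the counts were 20 and 22, beside 6329 of 12929 and 6086 of 12982 genes. In the comparison of genotypes, 17 of 38 (44.7%) were lower in the knockout at 300 and 22 of 38 (57.9%) at 600 mosmol/kg. The medians were 0.02 and −0.08, and the shares over all genes were 50.2% and 52.2%. The 6 members that were at least 1.5-fold higher in some comparison, Dnajb4, Dnajb9, Dnajb14, Dnajc12, Dnajc22 and Dnajc28, were all J-domain genes. J-domain genes made up 38 of the 65 members compared, and of these 6 only Dnajb9 exceeded 5 FPKM in any group. The share of members that were higher was under that of all genes in each comparison, as given above.

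The cytosolic class A proteins, which help Hsp70 in folding and transport to mitochondria, were abundant and stable. Dnaja2 was at 93.7, 84.4, 99.4 and 91.5 FPKM in Scr_300, Scr_600, Nfat5-KO_300 and Nfat5-KO_600, the highest of the J-domain genes, and Dnaja1 at 26.3, 23.3, 26.3 and 22.7 FPKM. Their log2 ratios lay between −0.21 and 0.12. Dnajb1, the Hsp40 that rises with heat shock, was equally flat, at 23.0, 22.3, 22.9 and 23.9 FPKM.

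Dnajb4, a class B relative of Dnajb1, had the clearest difference between genotypes. It was at 2.99 FPKM in Scr_300, 2.08 in Scr_600, 4.77 in Nfat5-KO_300 and 4.11 in Nfat5-KO_600. Both Nfat5-KO values lay above both Scr values, by 0.66 at 300 and 0.95 at 600 mosmol/kg, and it was lower in hypertonic medium in both genotypes (−0.50 and −0.21). Dnajb6, a class B protein that suppresses aggregation, was at 17.8, 21.0, 19.3 and 15.2 FPKM. It was higher at 600 mosmol/kg in Scr (0.24) and lower in Nfat5-KO cells (−0.34), which left the knockout lower at 600 mosmol/kg (−0.46).

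Dnajb12 and Dnajb14 sit in the membrane of the endoplasmic reticulum (ER) with their J domain in the cytosol and serve the degradation of ER proteins. Dnajb14 was at 1.43, 1.27, 1.76 and 2.00 FPKM and was higher in the knockout, by 0.29 at 300 and 0.62 at 600 mosmol/kg. Dnajb12 stayed between 14.9 and 16.4 FPKM. Dnajb2 was between 4.58 and 5.47 FPKM, and Dnajb5 was at 1.25, 1.55, 1.29 and 1.35 FPKM, with its largest difference in Scr cells (0.29).

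Among J-domain proteins of the ER lumen, which work with the Hsp70 Hspa5 (BiP), Dnajb9 stood out. It was at 5.59 FPKM in Scr_300, 5.47 in Scr_600, 5.10 in Nfat5-KO_300 and 9.32 in Nfat5-KO_600. The first 3 groups were level and Nfat5-KO_600 was above them, by 0.86 over Nfat5-KO_300 and 0.76 over Scr_600. Dnajb11, a BiP cochaperone bound to unfolded proteins, was at 27.5, 23.9, 40.7 and 28.8 FPKM, so that its high group was Nfat5-KO_300 (0.56 over Scr_300), and it was lower in hypertonic medium in both genotypes (−0.20 and −0.50). Dnajc3, which limits the kinase PERK and assists BiP, was flat at 11.1, 11.2, 10.1 and 10.8 FPKM. Dnajc10, a disulfide reductase, was at 28.2, 22.5, 28.0 and 26.4 FPKM (−0.32 and −0.08), and Dnajc1 at 2.18, 1.81, 2.70 and 1.97 FPKM (−0.25 and −0.44).

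Dnajb9, Dnajb11 and Dnajc3 are known as targets of the unfolded protein response, yet their high groups differed. Hspa5 itself, from the partner genes below, was at 145, 118, 143 and 94.0 FPKM, lowest in the group where Dnajb9 was highest, and Hyou1, another chaperone of the ER lumen, was at 22.2, 26.2, 27.0 and 24.2 FPKM. The stretch of 200 bases before the RefSeq start site of Dnajb9 (chr12:44210069-44210268 of GRCm38.p6, minus strand) is shown because Dnajb9 was the J-domain gene above 5 FPKM with the largest difference towards higher levels between the hypertonic groups. Capitals mark the match to the consensus of the tonicity-responsive element TonE, which NFAT5 binds and which was searched on both strands:
Dnajb9: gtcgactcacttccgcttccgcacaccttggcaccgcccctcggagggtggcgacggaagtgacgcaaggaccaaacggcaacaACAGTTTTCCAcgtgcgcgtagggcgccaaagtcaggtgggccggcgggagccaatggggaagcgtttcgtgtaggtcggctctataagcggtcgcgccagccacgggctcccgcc

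The TonE consensus occurs in 4.96% of the 32851 windows, and among members with at least 0.5 FPKM also in those of Bag1, Bag6, Dnajb2, Hspd1, Hspe1 and Pfdn6. These genes had no common direction, as Bag6 was higher and Hspd1, Hspe1 and Pfdn6 were lower in hypertonic medium in both genotypes. The ER stress element, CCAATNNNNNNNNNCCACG on either strand, occurs in 0.119% of the windows and among these members in that of Dnajc3.

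**Figure D3:**
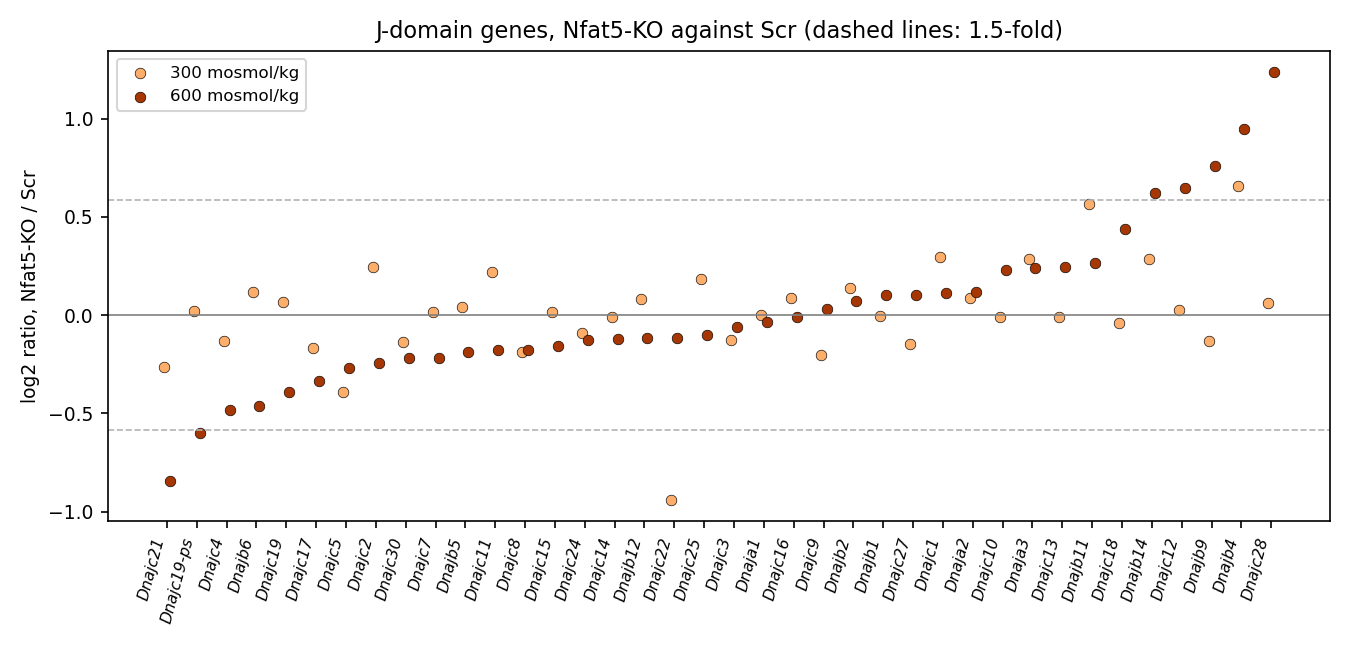
Log2 ratio of Nfat5-KO to Scr (y axis) for the 38 J-domain genes with at least 0.5 FPKM (x axis, ordered by the ratio at 600 mosmol/kg), at 300 mosmol/kg (light) and 600 mosmol/kg (dark). Dashed lines mark 1.5-fold, and at 600 mosmol/kg Dnajc28, Dnajb4, Dnajb9, Dnajc12 and Dnajb14 lie above the upper line.

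The J-domain genes assigned here to mitochondria were lower in hypertonic medium in 5 of 5 in each genotype (4 of 5 in Scr cells after rescaling). Over all genes 54.6% were lower in Scr and 52.9% in Nfat5-KO cells. The medians of the 5 were −0.11 in Scr and −0.51 in Nfat5-KO cells. In Scr cells Dnaja3 (−0.04), Dnajc30 (−0.09) and Dnajc11 (−0.11) differed little. Dnajc19 and Dnajc15, parts of the motor that imports proteins into mitochondria, had the lowest ratios. Dnajc19 (chr3:34056020-34081321, minus strand) was at 10.5 FPKM in Scr_300, 6.59 in Scr_600, 11.0 in Nfat5-KO_300 and 5.00 in Nfat5-KO_600 (−0.66 and −1.12). Dnajc19-ps, a processed pseudogene on chromosome 7 that aligned to Dnajc19 over 281 bases with 98.9% identity, was at 9.67, 6.30, 9.80 and 4.12 FPKM (−0.61 and −1.23). Reads of these genes may have been assigned to either, so their values are uncertain and are not independent of each other. Dnajc15 was at 4.47, 2.66, 4.52 and 2.37 FPKM, and both hypertonic groups lay below both isotonic ones (−0.73 and −0.90).

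Dnajc11, a protein of the mitochondrial membranes that helps to shape cristae, was at 6.42, 5.94, 7.49 and 5.23 FPKM with a ratio of −0.51 in Nfat5-KO and −0.11 in Scr cells. Dnaja3, a cochaperone of the mitochondrial Hsp70, was at 18.8, 18.3, 22.9 and 21.6 FPKM and was higher in the knockout at both osmolalities (0.29 and 0.24). Dnajc30 was between 4.31 and 5.36 FPKM.

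J-domain proteins of ribosomes, splicing and chromatin were lower at 600 mosmol/kg in 5 of 5 genes in Scr (3 of 5 after rescaling) and in 4 of 5 in Nfat5-KO cells. Over all genes 54.6% and 52.9% were lower, or 6329 of 12929 and 6086 of 12982 after rescaling. The medians of the 5 genes were −0.12 in Scr and −0.28 in Nfat5-KO cells. Dnajc21, which acts in the maturation of the large ribosomal subunit, was at 9.13, 8.98, 7.57 and 4.95 FPKM in Scr_300, Scr_600, Nfat5-KO_300 and Nfat5-KO_600. It did not differ between the Scr groups (−0.02), was lower at 600 mosmol/kg in Nfat5-KO cells (−0.60), and had the largest difference of any member towards lower levels between the hypertonic groups (−0.84). Dnajc2, which sits on the ribosome and assists new chains, was at 27.8, 24.9, 32.9 and 21.0 FPKM (−0.16 and −0.64), so that it was higher in the knockout at 300 mosmol/kg (0.24) and lower at 600 mosmol/kg (−0.24). Dnajc8 and Dnajc17, of the splicing machinery, were at 49.4, 42.0, 43.4 and 37.1 FPKM and at 7.80, 7.18, 6.93 and 5.67 FPKM, both lowest in Nfat5-KO_600. Dnajc9, a histone chaperone, was at 37.3, 36.0, 32.3 and 36.7 FPKM and was the only one of the 5 with a higher value at 600 mosmol/kg in Nfat5-KO cells (0.18).

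Of the vesicle proteins, Dnajc5, the cysteine string protein of secretory vesicles, was at 12.5, 11.4, 9.49 and 9.45 FPKM and was lower in the knockout at both osmolalities (−0.39 and −0.27). Dnajc13, which acts on endosomes, was level at 7.27, 7.20 and 7.22 FPKM in Scr_300, Scr_600 and Nfat5-KO_300 and was at 8.55 FPKM in Nfat5-KO_600.

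Other J-domain genes of low level held the highest ratios. Dnajc28 (chr16:91614254-91619026, minus strand) was at 0.547, 0.623, 0.575 and 1.60 FPKM in Scr_300, Scr_600, Nfat5-KO_300 and Nfat5-KO_600. Like Dnajb9, it was level in the first 3 groups and high in Nfat5-KO_600, by 1.34 over Nfat5-KO_300 and 1.24 over Scr_600. At such low levels the ratio rests on the pseudocount, and with 1 FPKM in place of 0.1 it was 0.73 and 0.68, so that both stayed above 1.5-fold and neither reached 2-fold. Dnajc12, a cochaperone of aromatic amino acid hydroxylases, was at 1.83, 2.35, 1.86 and 3.73 FPKM, higher in hypertonic medium in both genotypes (0.35 and 0.97). Dnajc22 was at 1.66, 1.92, 0.816 and 1.77 FPKM. Its ratio of 1.03 in Nfat5-KO cells stemmed from a low value in Nfat5-KO_300 (−0.94 against Scr_300) and not from a high one in Nfat5-KO_600. Dnajc18 was at 3.40, 3.22, 3.31 and 4.40 FPKM, again highest in Nfat5-KO_600 (0.40 over Nfat5-KO_300 and 0.44 over Scr_600). With the pseudocount of 1 FPKM, Dnajc12 at 600 mosmol/kg (0.50), Dnajb14 at 600 mosmol/kg (0.41), Dnajb4 at 300 mosmol/kg (0.53) and Dnajc22 at 300 mosmol/kg (−0.55) were no longer 1.5-fold different between genotypes.

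The remaining J-domain genes differed less. Dnajc4 was at 14.4, 12.3, 13.1 and 8.80 FPKM and was lowest in Nfat5-KO_600 (−0.57 against Nfat5-KO_300 and −0.48 against Scr_600). Dnajc24, of the synthesis of diphthamide on elongation factor 2, was at 9.49, 7.40, 8.91 and 6.77 FPKM and was lower in hypertonic medium by similar amounts (−0.35 and −0.39). Dnajc16 was at 3.11, 3.90, 3.31 and 3.87 FPKM and was higher in hypertonic medium in both genotypes (0.32 and 0.22), as did Dnajc14 at 13.1, 15.2, 13.0 and 14.0 FPKM (0.22 and 0.11). Dnajc7, which bridges Hsp70 and Hsp90, was between 11.8 and 13.7 FPKM, Dnajc25 between 1.73 and 1.98 FPKM, and Dnajc27 between 3.71 and 4.17 FPKM.

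The ratios in the 2 genotypes were then set side by side for each member. Of the 65, 40 were lower at 600 mosmol/kg in both genotypes (61.5%, beside 40.1% of all genes with at least 0.5 FPKM), 11 were higher in both and 14 had opposite signs. After rescaling, 36 were lower in both, 15 higher in both and 14 opposite. A share over all genes was calculated only for the first of these counts, as deposited, so the others have nothing to be set against. As deposited, the 14 were Dnajb6, Bag3, Pfdn2, Dnajc25, Dnajc7 and Dnajb12, which were higher in Scr and lower in Nfat5-KO cells, and Dnajb9, Dnajc18, Dnajb14, Hsf2, Dnajc13, Dnajc27, Dnajc9 and Dnajb1, which were lower in Scr and higher in Nfat5-KO cells. For most of them the Scr ratio was near 0. The ratio differed by at least 1.5-fold between genotypes in 5 of 65 members, beside 18.2% of the 13414 genes. These were Dnajc28 (1.18), Dnajb9 (0.89), Dnajc22 (0.83), Dnajc12 (0.62) and Dnajc19-ps (−0.62), given as the Nfat5-KO minus the Scr log2 ratio. The differences between genotypes could not be tested.

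**Figure D4:**
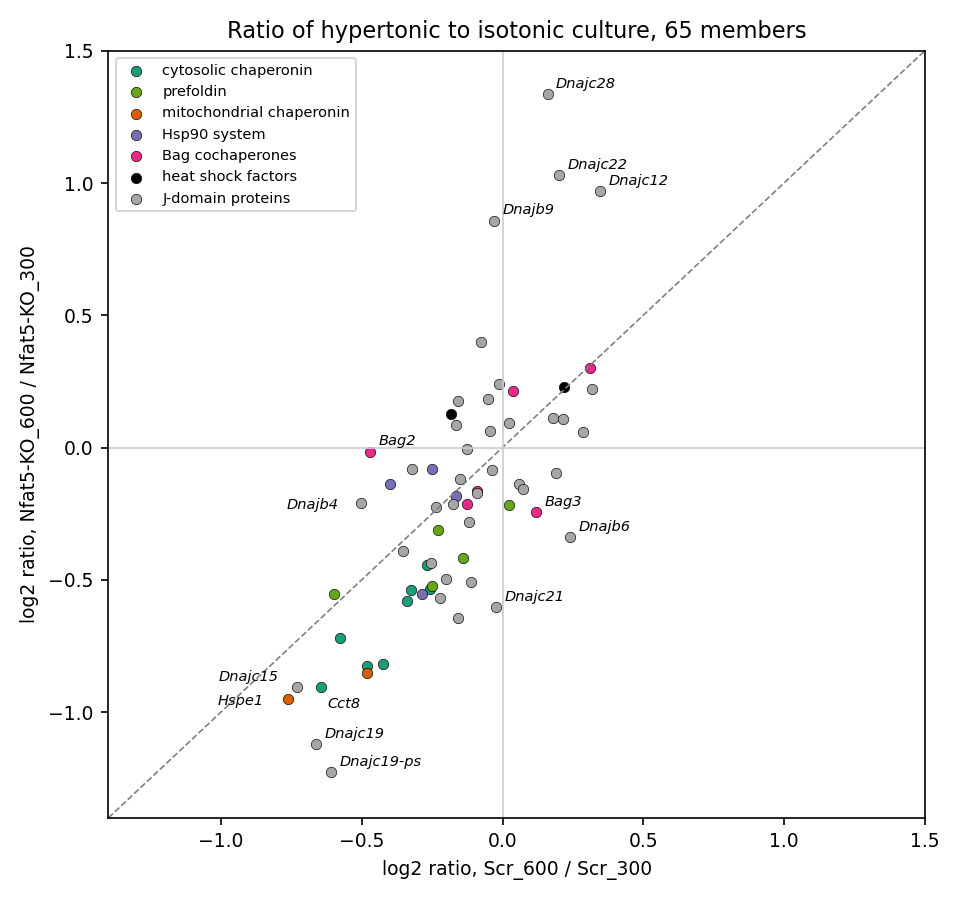
Log2 ratio of hypertonic to isotonic culture in Scr cells (x axis) and in Nfat5-KO cells (y axis) for the 65 members, coloured by role. Points below the dashed line of equal ratios have the lower ratio in Nfat5-KO cells, and the 8 chaperonin subunits all lie there, whereas Dnajc28, Dnajc22, Dnajc12 and Dnajb9 lie far above it.

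The other genes of these pathways were taken from a list of 46 partners outside the rule, of which 45 had at least 0.5 FPKM in each comparison. In hypertonic medium 34 of 45 were lower in Scr (median −0.18) and 38 of 45 in Nfat5-KO cells (median −0.30), or 30 and 34 after rescaling. These are 75.6% and 84.4%, beside the 54.6% and 52.9% of all genes given above. In the knockout 31 of 45 were lower at 300 mosmol/kg (median −0.04) and 31 of 45 at 600 mosmol/kg (median −0.17), 68.9% each. Over all genes 50.2% and 52.2% were lower there (medians −0.00 and −0.02). Over the genes of at least 50 FPKM these were 53.0% and 73.2% (medians −0.02 and −0.18). At least 1.5-fold lower were 2 and 5 partners in the tonicity comparisons of Scr and Nfat5-KO cells, 1 in Nfat5-KO_300 against Scr_300 and 0 in Nfat5-KO_600 against Scr_600, and 0 were 1.5-fold higher in any. In all genes the shares that were 1.5-fold lower were 9.01%, 13.8%, 6.21% and 9.44% in these comparisons. The shares that were 1.5-fold higher were 10.4%, 14.1%, 5.27% and 9.84%. Tomm70a, the mitochondrial import receptor that accepts proteins from Hsp70 and Hsp90, was at 30.0, 15.2, 39.0 and 17.1 FPKM in Scr_300, Scr_600, Nfat5-KO_300 and Nfat5-KO_600 (−0.97 and −1.18). Ppid, a cyclophilin of Hsp90 complexes, was at 32.2, 19.3, 39.5 and 19.7 FPKM (a linear ratio of 0.600 in Scr and 0.501 in Nfat5-KO cells). In both genes the hypertonic groups were alike and the isotonic ones higher.

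Hsp90b1, the Hsp90 of the ER, was at 187, 141, 155 and 105 FPKM (−0.41 and −0.57). Ptges3, the Hsp90 cochaperone p23, was at 159, 118, 143 and 102 FPKM (−0.42 and −0.49). Like Hsp90ab1, both were lower in the knockout at 300 and 600 mosmol/kg (Hsp90b1 −0.27 and −0.43, Ptges3 −0.15 and −0.22). Not all partners of Hsp90 shared this, as Fkbp4 (0.29 and 0.10) and Ahsa1 (0.48 and 0.16) were higher in the knockout, like Hsp90aa1. Ahsa1, which activates the ATPase of Hsp90, was at 37.3, 32.9, 52.2 and 36.8 FPKM and was highest in Nfat5-KO_300. Tbca and Tbcb, which receive tubulin after the chaperonin, were lower at 600 mosmol/kg in both genotypes, at 91.9, 74.4, 90.1 and 63.5 FPKM and at 35.5, 32.0, 35.5 and 22.8 FPKM, with Nfat5-KO_600 lowest in both.

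Of the 12 members below 0.5 FPKM in every group, 5 were listed at 0 throughout, namely Cct3-ps1, Cct8l1, Dnaja1-ps, Dnajb3 and Dnajc5g. The other 7 were Cct6b, Dnaja4, Dnajb13, Dnajb7, Dnajb8, Dnajc5b and Dnajc6, and the highest value among them was 0.208 FPKM, of Cct6b in Nfat5-KO_300. Some values may be mixed with those of other genes. Copies were sought only for members annotated as protein-coding, which left out Cct6a, annotated as a processed transcript. Copies of Hspe1 (99.0% identity over 208 bases) and Dnajc30 (92.9% over 616 bases) were found but had no usable value. Near-identical copies with at least 0.5 FPKM were found for 5 members, Dnaja1, Dnajb6, Dnajc19, Hsp90aa1 and Hspd1. The largest of these besides Dnajc19-ps were Gm12346, at 12.5 FPKM in Scr_300 with 99.5% identity to Hsp90aa1, and Hspd1-ps3, at 10.1 FPKM with 99.0% identity to Hspd1. Their parent genes were at 479 and 273 FPKM there. The copies weigh more beside Dnaja1, at 26.3 FPKM in Scr_300, where Gm15542 (99.4% identity) was at 9.55 FPKM, and beside Dnajb6, at 17.8 FPKM, whose copies summed to 6.80 FPKM, so the values of these genes are less certain. The exons of 10 members overlap those of a gene on the opposite strand by at least 10% of their exon bases. Among them are Pfdn2 with Klhdc9 (27.6%), Dnajc30 with Bud23 (26.2%), Dnajc14 with Ormdl2 (17.0%) and Cct6a with Psph (12.5%). In Scr_300 Klhdc9 was at only 0.0569 FPKM, Bud23 at 20.0, Ormdl2 at 19.9 and Psph at 7.80 FPKM. Pfdn5 overlaps Myg1, at 22.8 FPKM in Scr_300, on the same strand (11.8%). Whether the counting used strand is not given in the sources used here.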

How the data were processed

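The authors filtered RNA-seq reads of 12 mpkCCD libraries, mapped them to GRCm38 (mm10) with HISAT2, counted them per gene with HTSeq and deposited FPKM values, normalised to gene length and mapped reads, as 1 value per gene for each of 4 groups. How libraries were combined, the annotation release and the strand setting are not given in the sources used here. Of 54839 rows, 2436 lacked a value, 311 repeated another row exactly and 37 symbols had several rows. These were left out, with no member among the symbols, and 52015 genes stayed.

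Log2 ratios of FPKM + 0.1 were calculated wherever at least 1 of the groups compared reached 0.5 FPKM, and genes at least 1.5-fold or 2-fold different were counted. The planned model of values per library could not be fitted to 1 value per group, and no p-value was calculated. Because the values of a group share a total, an abundant transcript that is higher can lower the rest, so ratios were also rescaled by median-of-ratios factors of 1.02 (Scr_300), 0.984 (Scr_600), 1.03 (Nfat5-KO_300) and 0.971 (Nfat5-KO_600). Read depth, and with it the counting error of each value, is unknown.

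Members and lists were chosen with earlier results of these data known. Described in full were the chaperonin subunits, the Hsp90 system, Hspd1, Hspe1, the Bag genes, Hsf1 and Hsf2, and, among J-domain and prefoldin genes with at least 1 FPKM, the 6 with the highest and the 6 with the lowest ratio in each comparison. The comparison with genes of at least 50 FPKM and the sequences shown were chosen after the values were seen. Positions come from GENCODE M21 and promoter windows from RefSeq (GRCm38.p6). Copies were sought by aligning transcripts of the protein-coding members with minimap2 2.31 (at least 90% identity over at least 200 bases). The steps were tested on simulated data. Python 3.11.15 was used with numpy 2.4.6, pandas 2.3.3 and matplotlib 3.10.9. The alternatives were a pseudocount of 1 or 0.01, all genes without a filter, a minimum mean of 5 FPKM, rescaling and a 2-fold limit.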

Additional observations from a re-analysis of the deposited data

How the results depend on the processing

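The median log2 ratio of the members stayed below 0 in each of the 4 comparisons under each alternative run (pseudocounts of 1 and 0.01, no filter on low values, a minimum mean of 5 FPKM, and rescaling by median-of-ratios factors). Of 780 recomputed values of single members, 21 moved by at least 0.1 on the log2 scale, 13 crossed 1.5-fold, and none past 1.5-fold changed sign. Counts of members past 1.5-fold moved more, since they are small. In Scr_600 against Scr_300, 4 were lower with a pseudocount of 1 and 4 with median-of-ratios factors. In Nfat5-KO_600 against Nfat5-KO_300 these counts were 10 and 9. Dnajc15, Pfdn5 and Dnajc19-ps in Scr and Dnajc2 and Dnajc21 in Nfat5-KO cells fell short of 1.5-fold in at least 1 of these settings. With a pseudocount of 1 the counts were 0 higher and 0 lower in Nfat5-KO_300 against Scr_300, and 3 higher and 1 lower in Nfat5-KO_600 against Scr_600. Without a filter, 2 were lower in Nfat5-KO_300 against Scr_300. With a minimum mean of 5 FPKM, 1 was higher in Nfat5-KO_600 against Nfat5-KO_300, 0 were higher and 0 lower in Nfat5-KO_300 against Scr_300, and 1 was higher in Nfat5-KO_600 against Scr_600. With median-of-ratios factors, 1 was lower in Nfat5-KO_600 against Scr_600. At 2-fold, 0 were lower in Scr_600 against Scr_300, 2 higher and 2 lower in Nfat5-KO_600 against Nfat5-KO_300, 0 and 0 in Nfat5-KO_300 against Scr_300, and 1 higher and 0 lower in Nfat5-KO_600 against Scr_600. Fewer genes tested or a stricter limit account for the counts with that mean and at 2-fold, and for the others the cause was not tested. No paired analysis was possible because the deposited values hold 1 value per group. For the same reason no library could be left out. The depth of the libraries is unknown, so the limit it sets on these values is unknown too.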
